A study of Homo sapiens with 9 samples.

Results

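The HOX genes encode homeodomain transcription factors and lie in 4 clusters, HOXA to HOXD, each of which also holds long noncoding transcripts. Genes were taken as members when their symbol was HOX with a cluster letter and a number, with or without an antisense suffix, or when it was HOTAIR, HOTTIP, HOTAIRM1, HOXA-AS2 or HOXA-AS3. This gave 45 of the 31558 genes in the count table, 17 in the HOXA cluster, 9 in HOXB, 10 in HOXC and 9 in HOXD. Of these, 37 were protein-coding and 8 were noncoding. HOXB1 and HOXC12 were not analysed here.

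Within a cluster the genes are numbered by paralogue group, in the order in which they lie on the chromosome. In the embryo, low-numbered genes are switched on first and towards the head, and high-numbered genes later and towards the tail, which gives each body level its own combination. Adult tissues and tumour cell lines keep part of that combination. Hindgut epithelium is known for its high-numbered genes, and HOX proteins bind DNA together with PBX and MEIS cofactors.

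RNA was sequenced from HCT116, a human colorectal cancer (CRC) cell line, in 3 groups with 3 biological replicates each. CRLM1-OE cells overexpressed the long noncoding RNA CRLM1 (LINC01767), Ctrl cells carried the empty plasmid, and Anti cells carried a plasmid with the CRLM1 sequence in antisense. The study's methods name a lentiviral pTSB vector with GFP and puromycin resistance for CRLM1. Whether the cells of a group came from 1 transfection, 1 clone or a pool was not given in the sources used here, so the p values measure the spread between these samples. Differences between the groups' cells other than the insert cannot be told apart from the group.

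Total counts per sample ranged from 33302292 to 44514692. The floor of 3 counts, the smallest signal considered, lay between 0.0674 and 0.0901 CPM (counts relative to the library total) and covers counting error only. CRLM1, listed as RP4-710M16.2, had between 32751 and 38704 counts in the CRLM1-OE samples, 0 in every Ctrl sample and between 1540 and 1951 in the Anti samples. Of 12 markers of colorectal epithelium, 8 had a mean of at least 1 FPKM, led by KRT19 at 2880 and KRT8 at 1350, while the intestinal markers VIL1, CDH17 and LGALS4 had means of 0.0178, 0.0289 and 0.0311 FPKM. The summed epithelial level lay between 5080 and 5220 FPKM in CRLM1-OE, between 5660 and 5700 in Ctrl and between 4700 and 4760 in Anti. Among markers of fibroblasts and muscle, 3 of the 9 listed reached 1 FPKM, with sums of 10.5 to 11.1 in CRLM1-OE, 8.86 to 9.54 in Ctrl and 7.58 to 8.35 in Anti, and DCN and COL3A1 averaged 0.00222 FPKM. Among blood and endothelial markers only CD68 of the 9 listed reached 1 FPKM, with sums of 1.97 to 2.1, 1.67 to 1.84 and 1.39 to 1.63 in the same order, and PTPRC averaged 0.00222. Their part in the HOX results was not tested. RNA came from whole cultures, in which fewer cells of a kind and less RNA per cell cannot be told apart.

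On GRCh38, with positions from GENCODE version 44, the HOXA members lay on chromosome 7, with HOTAIRM1 at chr7:27095647-27100265 and HOXA10-AS at chr7:27168619-27171915, the HOXB members on chr17:48540894-48728750, the HOXC members on chr12:53935328-54056030 and the HOXD members on chr2:176092721-176190907. These genes overlap heavily. In that annotation 32 of the 45 members shared exonic bases with another gene listed in the count table, 27 of them on the opposite strand and 15 on the same strand. HOXA10-AS shared 36.8% of its exonic bases with HOXA10 and 25.5% with HOXA9, and HOXA7 shared 62.5% with HOXA-AS3. Whether strand was used in counting was not given in the sources used here, so reads from a gene and its antisense partner cannot be told apart in the shared stretches.

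RefSeq promoter windows (GRCh38.p14, 250 bases before to 50 after a start) were matched for 23 of the 45 members, with 29 distinct windows in all. HOXC4 and HOXC5 have the same window, which was counted once, 7 windows belong to HOXA3, and those of HOXA11 and HOXA11-AS and of HOXA13 and HOTTIP overlap on opposite strands. Members not matched include HOTAIRM1, HOXA10-AS, HOXB3 and HOXC10. Member windows held a median of 22 CpG pairs against 14 over all promoters, at a median GC content of 56.7% against 58.7%. The 2 stretches below are shown because HOXD8 was higher and HOXA7 lower in CRLM1-OE than in either control, and each is the part of the window outside annotated exons, with a CDX-type motif (TTTATG, searched on both strands) in capitals.

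HOXD8: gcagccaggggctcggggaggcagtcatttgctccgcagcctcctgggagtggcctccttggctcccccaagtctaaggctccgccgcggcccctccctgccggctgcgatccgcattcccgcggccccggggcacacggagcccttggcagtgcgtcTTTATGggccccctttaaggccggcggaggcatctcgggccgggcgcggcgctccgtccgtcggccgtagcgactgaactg

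HOXA7: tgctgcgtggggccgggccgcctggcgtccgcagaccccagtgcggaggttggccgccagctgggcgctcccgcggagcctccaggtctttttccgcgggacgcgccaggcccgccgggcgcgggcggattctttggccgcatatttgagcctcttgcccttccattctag

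The HOXD8 stretch is chr2:176129455-176129693 on the forward strand, with 72.0% GC and 25 CpG pairs, and the HOXA7 stretch is chr7:27156755-27156925 on the reverse strand, with 71.3% GC and 20 CpG pairs. The 2 differ in place. The HOXD8 stretch lies before the annotated gene, whereas the HOXA7 stretch lies inside the GENCODE span of HOXA7 (chr7:27153716-27157936), between annotated exons. TTTATG began at base 159 of the HOXD8 stretch and did not occur in the HOXA7 stretch. It occurred in 4 of the 29 member windows and in 10.6% of all promoters, and the CCAAT motif occurred in 18 of 29 and in 34.6%. AGGTCA, the half-site of nuclear receptors, and TGANTCA, the AP-1 motif, occurred in 0 of the 29 windows, against 13.8% and 7.72% of all promoters. TATAAA was found in 5 windows against 11.6% of all promoters, and TGATNNAT, a joint HOX and PBX motif, in 3 against 7.42%. All were searched on both strands, no motif contains another, though matches may share bases, and a match describes letters, not a bound site.

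HOXA and HOXB genes of the middle paralogue groups were the most abundant members in HCT116. In Ctrl the highest levels per length were those of HOXB9 at 17.2 ± 0.417 FPKM, HOXB7 at 13 and HOXA9 at 12.8, and these 3 genes made up 49.5% of the summed FPKM of the protein-coding members. HOXB9 and HOXA9 belong to paralogue group 9, and HOXB7 to group 7. The FPKM of HOXB7 and HOXA9 overlapped between the Ctrl samples, so their order is not resolved, while HOXB9 stood above both. HOXB6, HOXA10-AS and HOXB8 followed at 7.82, 6.88 and 6.53 FPKM in Ctrl. In CRLM1-OE, HOXA9 ranged from 14.84 to 15.35 FPKM and HOXB9 from 14.52 to 15.59, so the pair overlapped there.

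**Figure D1:**
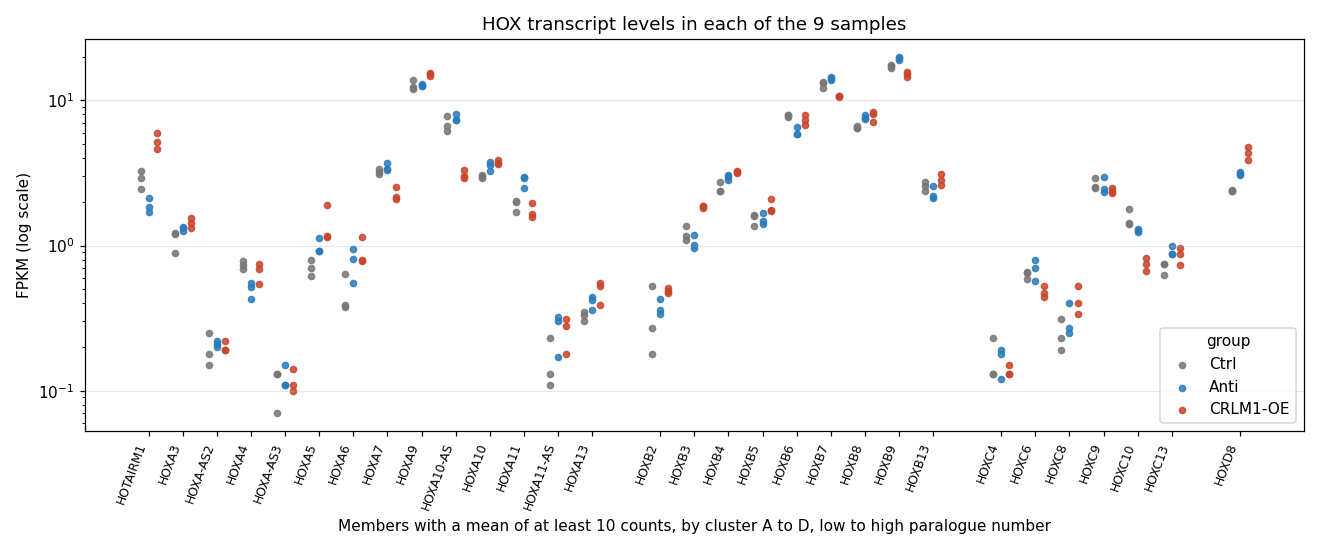
FPKM on a log scale of 30 of the 31 HOX members with a mean of at least 10 counts, with 1 point per sample (grey Ctrl, blue Anti, red CRLM1-OE; 3 samples each), ordered along clusters A to D. HOXB9, HOXB7 and HOXA9 lie highest in all groups, and HOXD8 is the one HOXD member shown.

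Levels below those leaders fell off quickly. In each of the 3 groups 19 members had a mean of at least 1 FPKM. A mean of at least 100 counts over the 9 samples was reached by 18 members and a mean of at least 10 by 31. The other 14, among them HOTAIR, HOTTIP, HOXA2, HOXC5, HOXC11 and 8 of the 9 HOXD members, never exceeded 15 counts in a sample. HOTAIR, a noncoding transcript of the HOXC cluster known from breast and colorectal cancers, had 2, 4 and 2 counts in CRLM1-OE, 5, 3 and 1 in Ctrl and 1, 3 and 0 in Anti. At these counts no difference in HOTAIR was detectable.

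Summed over the protein-coding members, HOXB was the most abundant cluster, followed by HOXA. The HOXA sum was 30.5 ± 1.13 FPKM in CRLM1-OE, with 25.6 ± 0.756 in Ctrl and 27.6 ± 0.298 in Anti (mean ± SD, n = 3). The HOXD sum was 4.62 ± 0.475, 2.50 ± 0.0252 and 3.24 ± 0.114 FPKM in the same order, nearly all of it HOXD8. Sums of HOXA and HOXD in CRLM1-OE lay above both controls in all samples. The HOXB sum was 51.3 ± 0.551 in CRLM1-OE, with 52.6 ± 0.570 in Ctrl and 55.7 ± 0.570 in Anti, and HOXC stood at 5.20 ± 0.172, 6.05 ± 0.489 and 6.10 ± 0.427. In both clusters every CRLM1-OE sample lay below every control sample. The gap was narrow in HOXB, where the highest CRLM1-OE sample had 51.8 and the lowest Ctrl sample 52.0 FPKM, closer than the SD of either group. With 3 samples a group, the smallest two-sided p that an exact permutation test allows is 0.1. FPKM are scaled to the library total, and on that scale the median gene with a mean of at least 50 counts lay 0.1 log2 units higher in CRLM1-OE than in Ctrl, against -0.039 with TMM factors.

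**Figure D2:**
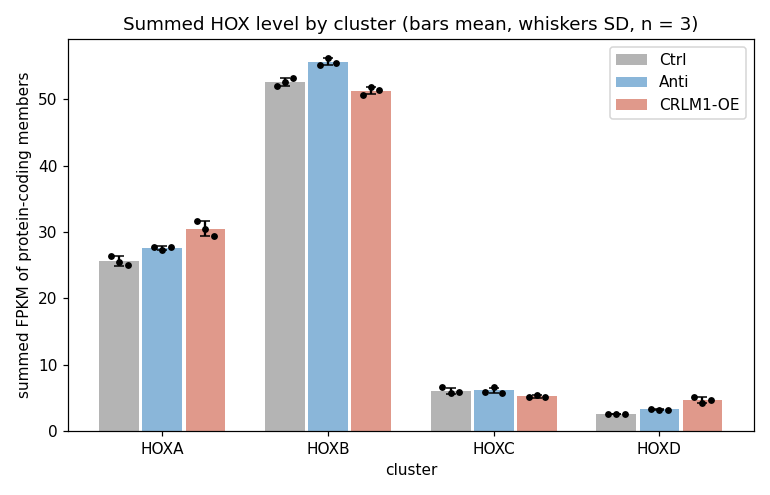
Summed FPKM of the protein-coding members of each HOX cluster (11 in HOXA, 9 in HOXB, 8 in HOXC, 9 in HOXD), with bars for the group mean, whiskers for the SD and black points for the 3 samples. CRLM1-OE lies above both controls in HOXA and HOXD and below both in HOXB and HOXC.

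The first comparison, CRLM1-OE with Ctrl, asks what CRLM1 overexpression changes relative to the empty plasmid. HOTAIRM1, HOXA5, HOXB3 and HOXD8 rose, by between 1.42-fold and 1.86-fold, while HOXA10-AS and HOXC10 fell more than 2-fold, with log2 changes of -1.26 and -1.17. By edgeR's quasi-likelihood test with Benjamini-Hochberg adjustment over all genes, 12 of the 45 members rose and 7 fell at an adjusted p of at most 0.05. That is 42.2% of the members, where 31.8% of all genes tested passed. Among members with a mean of at least 100 counts, 12 of 18 (66.7%) passed, where 67.9% of all genes that abundant did, so these HOX genes passed at a share near that of other genes of their abundance. Under a mean of 10 counts, 2 of 14 members passed (HOXA2 and HOXD9), against 2.06% of such genes. Of all genes, 15.0% rose and 16.8% fell. With library totals in place of TMM factors the split was 16 higher and 5 lower. The median change was 0.16 on the log2 scale over the 45 members and 0.017 over all genes tested. It was 0.14 over the 18 members with a mean of at least 100 counts and 0.72 over the 14 under 10.

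The rises lay mostly in HOXA, where 8 members rose and 2 fell, and the falls were spread over HOXA, HOXB and HOXC. HOXB had 2 higher and 3 lower, HOXC 0 higher and 2 lower, and HOXD 2 higher and 0 lower. By paralogue group, 5 of the 14 genes of groups 1 to 5 rose and 0 fell, in groups 6 to 9 4 of 12 rose and 5 fell, and in groups 10 to 13 2 of 11 rose and 1 fell. These rises include HOXA2 and HOXD9, with means under 10 counts. They also include HOXA6, HOXA9, HOXA10 and HOXA13, whose calls were lost in some alternatives. No test of a difference between clusters or paralogue groups was made.

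Among the noncoding transcripts of the HOXA cluster, HOTAIRM1 was higher in CRLM1-OE than in every control sample. HOTAIRM1, a noncoding transcript first described in myeloid cells, had 4.65, 5.16 and 5.97 FPKM in CRLM1-OE, 3.27, 2.44 and 2.90 in Ctrl and 1.71, 1.85 and 2.11 in Anti. The groups were separate, with Anti lowest. The log2 change was 0.75 ± 0.112 against Ctrl (adjusted p = 1.8e-10) and 1.43 ± 0.123 against Anti (adjusted p = 2.72e-30), and Anti lay 0.70 below Ctrl (log2 change -0.70 ± 0.141, adjusted p = 5.23e-06). HOXA2, a hindbrain patterning gene, had only 3, 13 and 5 counts in CRLM1-OE, 5, 0 and 0 in Ctrl and 3, 4 and 1 in Anti. Its change of 1.96 ± 0.807 against Ctrl passed barely (adjusted p = 0.0476) and missed the threshold without CRLM1-OE replicate 2 (1.07, adjusted p = 0.574), Ctrl replicate 2 or Ctrl replicate 3, while it reached 5.79 without Ctrl replicate 1. HOXA3, which acts in the pharyngeal region of the embryo, had 1.54, 1.44 and 1.32 FPKM in CRLM1-OE, 1.22, 0.89 and 1.21 in Ctrl and 1.26, 1.32 and 1.35 in Anti. CRLM1-OE lay above Ctrl and overlapped Anti, and the change of 0.25 ± 0.110 against Ctrl did not pass (adjusted p = 0.0646). That change passed in 7 of 15 alternatives.

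In the middle of the cluster, HOXA5 and HOXA6 rose and HOXA7 fell. HOXA5, known from lung and gut patterning, had 1.89, 1.14 and 1.16 FPKM in CRLM1-OE, 0.62, 0.80 and 0.70 in Ctrl and 0.91, 0.92 and 1.12 in Anti. Replicate 1 of CRLM1-OE was the highest, and all 3 lay above both controls, the closest pair being 1.14 and 1.12. Against Ctrl HOXA5 rose by 0.89 ± 0.178 (adjusted p = 3.1e-06), and against Anti by 0.48 ± 0.163 (adjusted p = 0.0106). The rise over Anti depended on 1 library, with 0.18 and an adjusted p of 0.555 without CRLM1-OE replicate 1, and it also missed the threshold without Anti replicate 1 (0.42, adjusted p = 0.054). That rise was lost too with DESeq2 (adjusted p = 0.0954) and with limma on FPKM. HOXA6, at 0.78, 1.14 and 0.79 FPKM in CRLM1-OE, 0.39, 0.64 and 0.38 in Ctrl and 0.95, 0.55 and 0.81 in Anti, rose against Ctrl by 0.82 ± 0.282 (adjusted p = 0.0133) and lost the call without CRLM1-OE replicate 2 (0.63, adjusted p = 0.123) or Ctrl replicate 1 (0.68, adjusted p = 0.0804). The HOXA6 call was also lost with DESeq2 (adjusted p = 0.0661). HOXA7 had 2.53, 2.15 and 2.10 FPKM in CRLM1-OE, 3.19, 3.13 and 3.38 in Ctrl and 3.34, 3.69 and 3.36 in Anti. All CRLM1-OE samples lay below all controls, and Ctrl and Anti overlapped. The change was -0.62 ± 0.102 against Ctrl (adjusted p = 7.95e-09) and -0.65 ± 0.1 against Anti (adjusted p = 4.22e-10). HOXA-AS3, which shares exonic bases with HOXA7 on the other strand, had between 16 and 36 counts per sample and did not pass in any comparison.

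Towards the 5′ end the antisense transcript HOXA10-AS fell while the genes it overlaps did not fall. HOXA10-AS had 3.33, 2.93 and 3.02 FPKM in CRLM1-OE, 6.69, 6.18 and 7.77 in Ctrl and 7.29, 7.35 and 8.08 in Anti. The CRLM1-OE samples stood apart and the controls overlapped. It fell by 1.26 on the log2 scale against Ctrl (SE 0.103, adjusted p = 3.52e-33), a 2.40-fold drop, and by 1.33 against Anti (SE 0.1, adjusted p = 6.74e-39), a 2.52-fold drop. HOXA9, which is fused in some myeloid leukaemias, had 15.22, 15.35 and 14.84 FPKM in CRLM1-OE, 13.90, 12.42 and 11.94 in Ctrl and 12.89, 12.64 and 12.50 in Anti. It changed by 0.13 ± 0.0479 against Ctrl (adjusted p = 0.0248) and 0.21 ± 0.0473 against Anti (adjusted p = 4.22e-05). The first of these is small and was lost in 6 of 15 alternatives, among them the removal of CRLM1-OE replicate 1 or 2 or of Ctrl replicate 2 or 3, and it was 0.20 without Ctrl replicate 1. HOXA10 had 3.87, 3.70 and 3.65 FPKM in CRLM1-OE, 3.08, 3.03 and 2.90 in Ctrl and 3.76, 3.28 and 3.61 in Anti, and rose against Ctrl by 0.20 ± 0.0756 (adjusted p = 0.0249), a call lost without CRLM1-OE replicate 1 (adjusted p = 0.118) or Ctrl replicate 3 (0.0645). Against Anti the HOXA10 difference was 0.031, with a 95% interval from -0.11 to 0.17.

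HOXA11 and HOXA13, known from limb, kidney and hindgut development, lie beyond. HOXA11 had 1.96, 1.64 and 1.58 FPKM in CRLM1-OE, 1.71, 2.02 and 1.98 in Ctrl and 2.49, 2.93 and 2.96 in Anti. Anti was the group that stood apart, and CRLM1-OE overlapped Ctrl. The change against Ctrl was -0.24 ± 0.116 (adjusted p = 0.102), and against Anti it was -0.73 ± 0.105 (adjusted p = 2.64e-11), while Anti lay 0.47 ± 0.104 above Ctrl (adjusted p = 6.03e-05). HOXA11 and HOXA11-AS share exonic bases on opposite strands, and HOXA11-AS, with 9 to 29 counts per sample, did not pass in any comparison. HOXA13, at 0.55, 0.39 and 0.53 FPKM in CRLM1-OE, 0.30, 0.33 and 0.35 in Ctrl and 0.44, 0.36 and 0.42 in Anti, rose against Ctrl by 0.50 ± 0.161 (adjusted p = 0.00751), a call lost without CRLM1-OE replicate 1 (0.41, adjusted p = 0.0791). The HOXA13 call was also lost with DESeq2 (adjusted p = 0.0506) and with limma on FPKM.

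**Figure D3:**
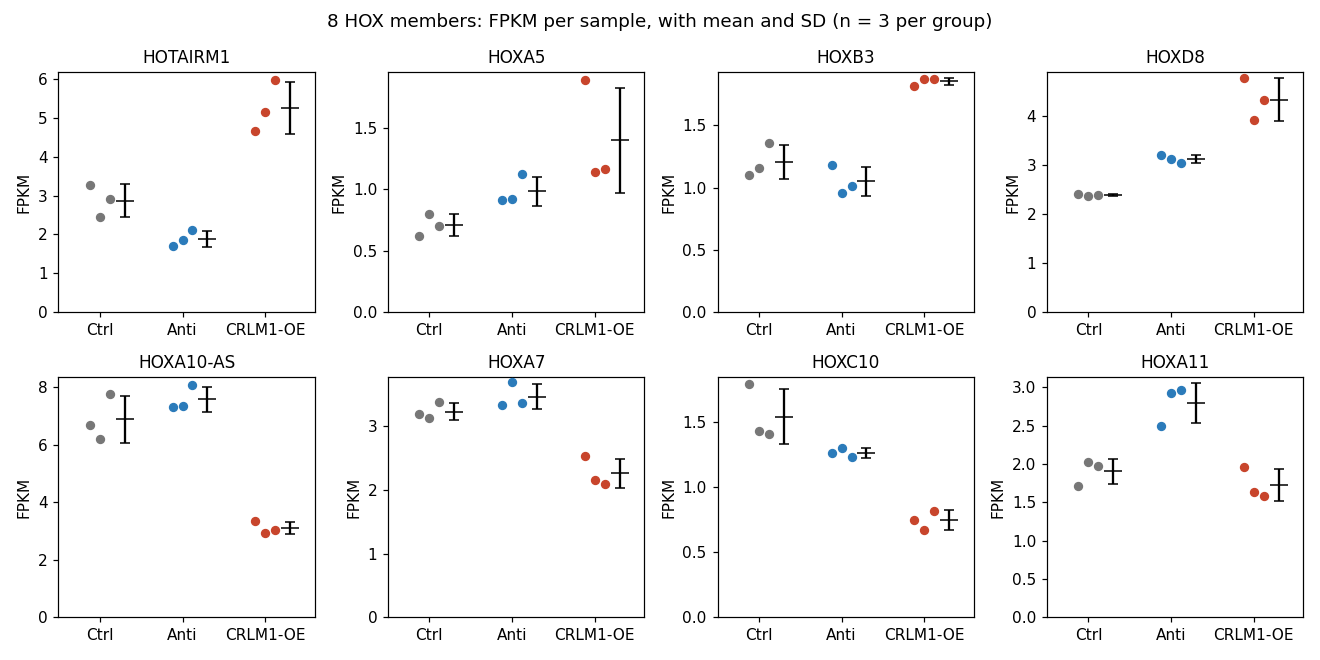
FPKM of 8 HOX members in each sample, with a separate linear axis from 0 for each gene, points for the 3 samples of a group and a bar with whiskers for the mean and SD. HOTAIRM1, HOXA5, HOXB3 and HOXD8 are higher and HOXA10-AS, HOXA7 and HOXC10 lower in CRLM1-OE than in all control samples, whereas HOXA11 is set apart by the Anti samples.

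In the HOXB cluster HOXB3 and HOXB4 rose and the abundant genes HOXB6, HOXB7 and HOXB9 fell against Ctrl. HOXB3 had 1.82, 1.87 and 1.87 FPKM in CRLM1-OE, 1.10, 1.16 and 1.36 in Ctrl and 1.18, 0.96 and 1.01 in Anti. CRLM1-OE lay above both controls, which overlapped. The rise was 0.51 ± 0.0803 (adjusted p = 1.71e-09) against Ctrl and 0.77 ± 0.0826 (adjusted p = 1.28e-19) against Anti. HOXB4, studied for its role in blood stem cells, had 3.22, 3.17 and 3.25 FPKM in CRLM1-OE, 2.38, 2.39 and 2.75 in Ctrl and 2.83, 3.06 and 2.97 in Anti. It rose against Ctrl by 0.25 ± 0.0754 (adjusted p = 0.00403), whereas the difference from Anti was 0.076 with an interval from -0.07 to 0.22. HOXB7 had 10.77, 10.64 and 10.73 FPKM in CRLM1-OE, 12.24, 13.38 and 13.26 in Ctrl and 13.89, 14.26 and 14.61 in Anti. On the FPKM scale the groups were ordered without overlap. In the count fit Anti did not differ detectably from Ctrl (0.048 ± 0.0592, adjusted p = 0.607). The HOXB7 changes in CRLM1-OE were -0.39 ± 0.0626 against Ctrl (adjusted p = 5.18e-09) and -0.46 ± 0.0611 against Anti (adjusted p = 6.18e-13). HOXB9, the most abundant member in the controls, fell from 17.44, 16.69 and 17.38 FPKM in Ctrl and 18.85, 20.01 and 19.48 in Anti to 15.59, 15.28 and 14.52 in CRLM1-OE. Its changes were -0.30 ± 0.0412 (adjusted p = 5.16e-12) and -0.41 ± 0.0390 (adjusted p = 2.09e-24).

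HOXB6 changed with opposite signs against the 2 controls. It had 6.75, 7.98 and 7.31 FPKM in CRLM1-OE, 7.70, 7.89 and 7.88 in Ctrl and 6.56, 5.90 and 5.86 in Anti. The CRLM1-OE samples overlapped Ctrl on this scale and lay above Anti. The log2 change was -0.21 ± 0.0649 against Ctrl (adjusted p = 0.00498) and 0.21 ± 0.0683 against Anti (adjusted p = 0.00602), and Anti lay 0.45 lower than Ctrl (-0.45 ± 0.0686, adjusted p = 1.23e-09). The fall against Ctrl was lost with library totals (-0.068, adjusted p = 0.513), without CRLM1-OE replicate 1 (-0.15, adjusted p = 0.134) and with limma on FPKM. The rise over Anti was lost without CRLM1-OE replicate 2 (0.16, adjusted p = 0.113) or Anti replicate 3 (0.18, adjusted p = 0.0531). HOXB5 and HOXB8 did not pass in any comparison. In the 15 alternatives, HOXB8 passed against Ctrl in 6 and for Anti against Ctrl in 3. HOXB5 had 2.08, 1.75 and 1.72 FPKM in CRLM1-OE, 1.62, 1.37 and 1.59 in Ctrl and 1.47, 1.67 and 1.41 in Anti. HOXB8 had 7.15, 8 and 8.35 FPKM in CRLM1-OE, 6.47, 6.69 and 6.43 in Ctrl and 7.45, 7.92 and 7.58 in Anti. The CRLM1-OE samples of HOXB5 lay above both controls and those of HOXB8 above Ctrl alone, with adjusted p of 0.406 and 0.0996 against Ctrl and 0.140 and 0.892 against Anti.

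HOXB13, the most 5′ gene of the cluster and a marker of prostate and hindgut, had 2.84, 2.6 and 3.12 FPKM in CRLM1-OE, 2.57, 2.76 and 2.36 in Ctrl and 2.59, 2.14 and 2.19 in Anti. CRLM1-OE overlapped Ctrl and lay above Anti, the closest pair being 2.6 and 2.59. It did not pass against Ctrl (0.042 ± 0.0803, adjusted p = 0.742). Against Anti it rose by 0.26 ± 0.0820 (adjusted p = 0.00569), a call lost without CRLM1-OE replicate 3 (0.20), Anti replicate 2 (0.22) or Anti replicate 3 (0.22), and with limma on FPKM.

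The HOXC members that passed all fell, and HOXD8 rose. HOXC10 had 0.75, 0.67 and 0.82 FPKM in CRLM1-OE, 1.79, 1.43 and 1.41 in Ctrl and 1.26, 1.30 and 1.23 in Anti. Each group was separate, with CRLM1-OE lowest. HOXC10 fell by 1.17 against Ctrl (SE 0.157, adjusted p = 1.16e-12), a 2.25-fold drop, and by 0.80 against Anti (SE 0.166, adjusted p = 6.49e-06). HOXC6 had 0.53, 0.47 and 0.44 FPKM in CRLM1-OE, 0.65, 0.66 and 0.59 in Ctrl and 0.80, 0.70 and 0.57 in Anti. Its changes were -0.50 ± 0.171 (adjusted p = 0.0121) and -0.57 ± 0.166 (adjusted p = 0.00215), and the first was lost without CRLM1-OE replicate 3 (-0.45, adjusted p = 0.0526) and with library totals (-0.36, adjusted p = 0.0984). Both calls were lost with limma on FPKM, and the first also with DESeq2 (adjusted p = 0.0557). HOXC9 had 2.49, 2.37 and 2.29 FPKM in CRLM1-OE, 2.93, 2.50 and 2.52 in Ctrl and 2.35, 2.97 and 2.45 in Anti. Its CRLM1-OE samples lay below Ctrl, at the nearest 2.49 against 2.50, and overlapped Anti, and the change of -0.27 ± 0.120 against Ctrl did not pass (adjusted p = 0.0713). HOXC4, HOXC8, HOXC9 and HOXC13 did not pass in any comparison.

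HOXD8 had 4.78, 3.91 and 4.32 FPKM in CRLM1-OE, 2.42, 2.36 and 2.39 in Ctrl and 3.21, 3.13 and 3.05 in Anti. The groups did not overlap, and Anti lay between the others. It rose by 0.75 ± 0.0842 against Ctrl (adjusted p = 7.02e-18) and by 0.43 ± 0.0785 against Anti (adjusted p = 2.72e-07), and Anti exceeded Ctrl by 0.30 ± 0.0911 (adjusted p = 0.00557). The promoter stretch of HOXD8 printed above lies directly before this gene, and 24.4% of the exonic bases of HOXD8 are shared with HOXD-AS2. The other HOXD gene that passed, HOXD9, had 2, 2 and 5 counts in CRLM1-OE, 0, 0 and 0 in Ctrl and 0, 0 and 1 in Anti. These counts lie at or under the floor in nearly every sample, so no fold is given. The call against Ctrl (adjusted p = 0.0327) was lost in the fits without CRLM1-OE replicate 2 or 3 or without any 1 of the Ctrl replicates, and by DESeq2, which gave no adjusted p.

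**Figure D4:**
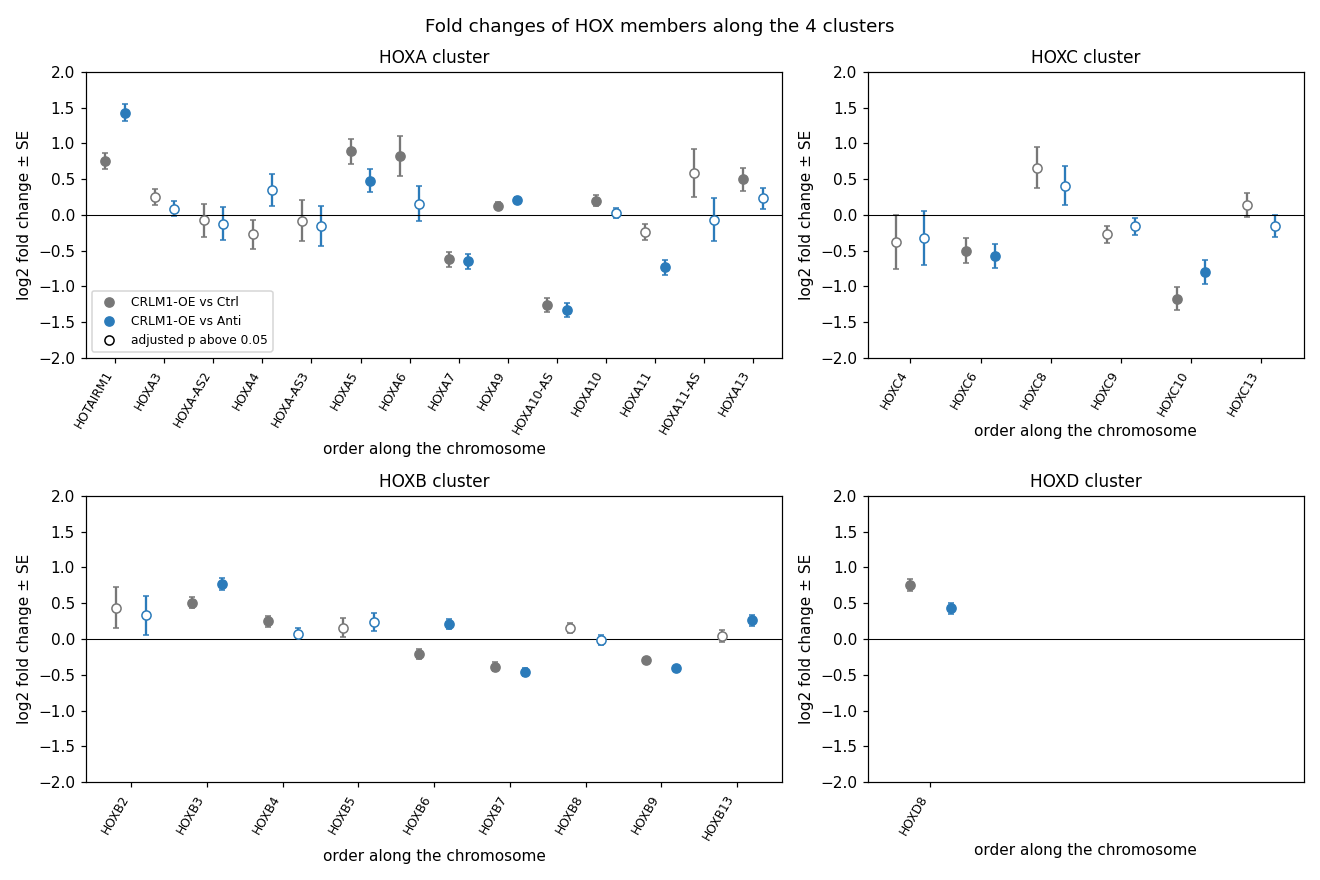
Log2 fold change ± SE of CRLM1-OE against Ctrl (grey) and against Anti (blue) for 30 of the 31 members with a mean of at least 10 counts, ordered along each cluster from the low-numbered to the high-numbered end. Filled points passed an adjusted p of 0.05; both comparisons share the CRLM1-OE samples.

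Across the 26 protein-coding members with a mean of at least 10 counts, Spearman's correlation between paralogue number and log2 change was -0.29 against Ctrl, -0.41 against Anti and 0.26 for Anti against Ctrl. Within HOXB (9 genes) it was -0.77 against Ctrl and -0.53 against Anti, and within HOXA (10 genes) -0.32 and -0.52. These values are across genes of the same libraries, which are not independent replicates, and the comparisons share samples, so they only describe the order seen in the plot of fold changes along the clusters.

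The second comparison, CRLM1-OE with Anti, uses the same CRLM1-OE samples and a control that also carries a plasmid insert. HOTAIRM1 rose and HOXA10-AS fell past 2-fold, and HOXB3 rose 1.70-fold. In all, 8 of 45 members rose and 7 fell at an adjusted p of at most 0.05 (33.3%, against 35.6% of all genes tested, with 17.1% higher and 18.5% lower). Of the members with a mean of at least 100 counts, 12 of 18 (66.7%) passed, against 74.2% of genes that abundant, and under a mean of 10 counts 0 of 14 did, against 3.22%. The median over members was 0.21 and over all genes tested -0.023. It was 0.083 over the 18 members with a mean of at least 100 counts and 0.94 over the 14 under 10. Library totals left the split at 8 and 7. In this comparison 4 HOXA members rose and 3 fell, in HOXB 3 rose and 2 fell, in HOXC 0 rose and 2 fell, and in HOXD HOXD8 alone rose.

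At 2-fold and an adjusted p of at most 0.05, 3 members were called against Anti, among them HOTAIRM1 and HOXA10-AS, a share to be read beside 5.65% of all genes. Against Ctrl there were 4, HOXA10-AS, HOXC10 and the sparsely counted HOXA2 and HOXD9, beside 3.41% of all genes. Without HOXA2 and HOXD9, whose counts are given above, 2 remain, the number that DESeq2's Wald test also called.

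Members that moved the same way against both controls include HOTAIRM1, HOXA5, HOXA9, HOXB3 and HOXD8 upwards and HOXA7, HOXA10-AS, HOXB7, HOXB9, HOXC6 and HOXC10 downwards. Both comparisons share the CRLM1-OE samples, so this list is no independent repeat. The calls of HOXA9 and HOXC6 against Ctrl and of HOXA5 and HOXC6 against Anti were lost in some alternatives, as given above.

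The third comparison, Anti with Ctrl, shows how far the 2 controls differ in HOX expression. HOTAIRM1, HOXA4, HOXB3, HOXB6, HOXB13 and HOXC10 fell and HOXA11 and HOXD8 rose in Anti, so 2 of 44 members tested were higher and 6 lower (18.2%, against 23.7% of all genes). Among members with at least 100 mean counts, 6 of 18 (33.3%) passed, against 53.9% of genes that abundant, and under a mean of 10 counts 0 of 13 did, against 1.02%. With library totals the split was 9 higher and 2 lower, so the balance of the calls turned with the scaling. With TMM factors 26 of the 44 members tested had a positive log2 change, called or not, and the median was 0.048. HOXA4, at 0.55, 0.43 and 0.52 FPKM in Anti, 0.69, 0.73 and 0.78 in Ctrl and 0.54, 0.75 and 0.69 in CRLM1-OE, changed in Anti against Ctrl by -0.64 ± 0.216 (adjusted p = 0.0156), a call lost without Anti replicate 2 or Ctrl replicate 3. HOXB3 changed by -0.28 ± 0.0919 (adjusted p = 0.0107) and by -0.18 (adjusted p = 0.230) without Ctrl replicate 3, and the call was also lost without Anti replicate 2 (-0.23) or 3 (-0.25). HOXC10 changed by -0.39 ± 0.140 (adjusted p = 0.0243) and by -0.26 (adjusted p = 0.288) without Ctrl replicate 1, and lost the call without Anti replicate 1 or 3 too. HOXB13 changed by -0.24 ± 0.0852 (adjusted p = 0.0238) and lost the call without Anti replicate 2 or 3 or Ctrl replicate 1 or 2. The calls of HOXB3, HOXC10 and HOXB13 were also lost with library totals, with DESeq2 and with limma on FPKM. That of HOXA4 was also lost with library totals, with DESeq2 and with limma at a pseudocount of 0.1. By edgeR 0 members reached 2-fold at an adjusted p of at most 0.05, beside 1.06% of all genes, and 0 did so at an unadjusted p of at most 0.05 or with DESeq2. An unadjusted p of at most 0.05 without a fold limit was reached by 13 of the 44 members tested, beside 29.8% of all genes.

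Partners of HOX proteins moved in both directions. Of 9 PBX, MEIS and PKNOX genes, 8 were tested, of which 1 rose and 2 fell against Ctrl and 3 rose and 2 fell against Anti. The shares that passed, 37.5% and 62.5%, stand beside 31.8% and 35.6% of all genes. Of the 8, 7 had a mean of at least 100 counts, where 67.9% and 74.2% of all such genes passed. Anti also differed from Ctrl, with 0 of the 8 higher and 3 lower (37.5%, beside 23.7% of all genes), or 0 and 2 with library totals. PBX3 and PBX4 rose by 0.49 and 0.48 against Anti. They changed by 0.06 and 0.054 against Ctrl, which did not pass, and each by -0.45 in Anti against Ctrl. PBX2, the most abundant of the named partners at 21.0 ± 0.595 FPKM in Ctrl, changed by -0.35 ± 0.0353 (adjusted p = 3.72e-22) against Ctrl. MEIS3 rose by 0.15 ± 0.0497 (adjusted p = 0.0113) in the same comparison, a call lost without CRLM1-OE replicate 1 (0.13, adjusted p = 0.0612) or 3 (0.11, adjusted p = 0.140) or Ctrl replicate 2 (0.13, adjusted p = 0.0676).

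Chromatin regulators that silence or maintain HOX genes were described as lists, by counts. Among 31 Polycomb genes, which place or read repressive histone marks, 7 rose and 13 fell against Ctrl, with a median of -0.082 on the log2 scale, and 10 rose and 13 fell against Anti. All 31 had a mean of at least 100 counts, and the shares that passed, 64.5% and 74.2%, were near those of all genes that abundant, 67.9% and 74.2%. With library totals these splits were 12 and 7 and 15 and 13, so the balance of the list turned with the scaling against both controls. RBBP4, a histone-binding subunit, had 7.05 ± 0.263 FPKM in CRLM1-OE against 12.7 ± 0.501 in Ctrl and 16.5 ± 0.185 in Anti, and fell by 0.96 (SE 0.0328, adjusted p = 1.45e-186) against Ctrl. EZH2, the methyltransferase, changed by -0.48 ± 0.0621 (adjusted p = 6.68e-14) against Ctrl and -0.68 ± 0.0594 (adjusted p = 7.82e-29) against Anti. JARID2 and CBX6 rose, each by 0.60 against Ctrl.

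Among 19 genes of the MLL complexes, DOT1L and the H3K27 demethylases, 12 rose and 3 fell against Ctrl (15 and 0 with library totals), with a median of 0.15. Against Anti 5 rose and 6 fell (7 and 5 with library totals), with a median of -0.017. All 19 had a mean of at least 100 counts, and 78.9% of them passed against Ctrl and 57.9% against Anti, beside 67.9% and 74.2% of all genes that abundant. DOT1L, an H3K79 methyltransferase, had 11.1 ± 0.434 FPKM in CRLM1-OE, with 6.37 ± 0.221 in Ctrl and 7.45 ± 0.0854 in Anti, and rose by 0.68 ± 0.0352 (adjusted p = 1.82e-81) and 0.53 ± 0.0324 (adjusted p = 1.21e-57). HCFC1 rose by 0.45 ± 0.0362 and 0.42 ± 0.0340 (adjusted p = 7.43e-34 and 8.12e-34). KMT2B rose against Ctrl by 0.45 ± 0.0453 (adjusted p = 8.22e-22). Anti also differed from Ctrl in this list, with 11 genes higher and 3 lower (16 and 1 with library totals). These are 73.7% of the list, beside 53.9% of all genes that abundant.

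Retinoic acid is the classical inducer of 3′ HOX genes. Of 18 genes of its transport, metabolism and reception, 15 were tested, of which 6 rose and 5 fell against Ctrl and 7 rose and 4 fell against Anti. Of the 10 with a mean of at least 100 counts, 9 passed in each comparison, beside the same 67.9% and 74.2%. CYP26A1, the enzyme that degrades retinoic acid, had 12, 8 and 22 counts in CRLM1-OE, 4, 0 and 1 in Ctrl and 6, 4 and 4 in Anti. It rose by 2.88 ± 0.642 (adjusted p = 3.73e-05) against Ctrl from very low counts, and by 1.5 ± 0.506 (adjusted p = 0.0101) against Anti. The call against Anti held in 9 of 13 alternatives, and was lost without CRLM1-OE replicate 3 (1.03, adjusted p = 0.234), with DESeq2 (adjusted p = 0.0606) and with limma on FPKM. STRA6, a retinol transporter, had 6, 5 and 10 counts in CRLM1-OE, 35, 34 and 20 in Ctrl and 94, 45 and 54 in Anti, and fell by 2.17 (SE 0.369, adjusted p = 3.16e-08) and by 3.23 (SE 0.304, adjusted p = 2.58e-25). CRABP2, an abundant cytosolic binding protein at 143 ± 1.21 FPKM in CRLM1-OE and 197 ± 2.83 in Ctrl, fell by 0.57 (SE 0.0257, adjusted p = 1.79e-108). With library totals 7 rose and 2 fell against Ctrl.

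Of the 6 ParaHox and CDX genes, 4 were tested and only PDX1, the pancreatic and duodenal factor, passed. It rose by 0.56 ± 0.146 (adjusted p = 0.000535) against Ctrl and by 0.58 ± 0.144 (adjusted p = 0.000203) against Anti. Of all genes 31.8% and 35.6% passed in these comparisons. CDX2, the intestinal regulator of HOX genes, did not pass against either control, at 3.00 ± 0.130 FPKM in CRLM1-OE, with 2.92 ± 0.0608 in Ctrl and 3.08 ± 0.309 in Anti.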

How the data were processed

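HCT116 cells overexpressing CRLM1, carrying the empty plasmid or carrying the antisense plasmid (3 replicates per group, grouped by the labels) were lysed in TRIZOL, and KAPA RNA HyperPrep libraries were read as pairs of 151 nt. The authors aligned trimmed reads with TopHat2 on GRCh38 (Gencode version 23, up to 4 mismatches) and deposited raw counts of uniquely mapped reads for each gene. The authors also deposited FPKM to 2 decimals, which divide by exon length and by a sample's mapped fragments. The submitters' processing notes name bcl2fastq, TopHat2 and edgeR. Both tables are restricted to expressed genes, and the criterion is not given in the sources used here.

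Here the counts went through edgeR 4.0.16 under R 4.3.3, with TMM scaling, quasi-likelihood fits (glmQLFit, glmQLFTest) of the 6 samples of a comparison and Benjamini-Hochberg adjustment over all genes that had a count. Per-sample values are FPKM, fold changes come from counts, and intervals are at 95%. Gene lists were described by counts and medians. Some genes are counted in their group but not reported here by name. Members and lists were chosen with earlier results of these data known. Values per sample are given for the members reported here that passed in at least 1 comparison or averaged at least 100 counts, and for list genes past 2-fold or, otherwise, the 3 with the smallest adjusted p. EZH2 against Ctrl follows its value against Anti. On data simulated with a common dispersion, the test recovered 98% of 100 genes changed by 0.6 log2 units, for CRLM1-OE against Ctrl. Those genes had a mean of at least 50 counts, so sparser members and smaller changes were not covered. Plots used matplotlib 3.10.9.

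Alternatives were RLE factors, library totals, filterByExpr, at least 10 counts in every sample, DESeq2 1.42.0, limma 3.58.1 on log2 FPKM with pseudocounts of 0.1 or 1, 1 fit of all 9 samples, a replicate block and leaving out each replicate. Their use on the gene lists was chosen after seeing the data.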

Additional observations from a re-analysis of the deposited data

How the results depend on the processing

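Against Ctrl, HOTAIRM1, HOXA5, HOXA7, HOXA10-AS, HOXB3, HOXB4, HOXB7, HOXB9, HOXC10 and HOXD8 passed in all 15 alternatives with an unchanged direction. Among members that did not pass against Ctrl, HOXA3 passed in 7 alternatives, HOXB8 in 6, HOXA11 in 2 and HOXC9 in 1. Of 12 members higher against Ctrl, DESeq2 called 7. Of 4 members past 2-fold, library totals gave 7, filterByExpr 2, at least 10 counts in every sample 2, DESeq2 2, and limma 1 with a pseudocount of 0.1 and 0 with a pseudocount of 1. Of 2 members higher and 6 lower in Anti than in Ctrl, library totals gave 9 and 2, limma with 0.1 gave 5 and 2, limma with 1 gave 6 and 3, and DESeq2 gave 2 lower.

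With the replicate number as a block, 12 rose, 7 fell and 2 were past 2-fold against Ctrl, 8, 7 and 3 against Anti, and 2, 7 and 0 for Anti against Ctrl. The residuals of same-numbered samples correlated between -0.0749 and 0.0782 over 9 pairs of samples, and those of differently numbered samples between -0.109 and 0.144. No pairing by number was seen, but residuals taken within groups of 3 samples cannot exclude it.

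Leaving out each replicate gave 8 to 13 higher, 6 to 8 lower and 2 to 5 past 2-fold against Ctrl (2 without Ctrl replicate 3), 6 to 8, 7 to 7 and 3 to 4 against Anti, and 2 to 4, 3 to 5 and 0 to 1 for Anti against Ctrl.

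Direction turned only for members that had not passed, and the cause was not tested. Over the fits without 1 replicate, the log2 change of HOXB13 against Ctrl ran from -0.029 to 0.11. Against Anti, HOXA10 ran from -0.013 to 0.071, HOXA6 from -0.023 to 0.35 and HOXB8 from -0.058 to 0.049, and HOXB8 was 0.045 with library totals, 0.00012 with at least 10 counts and 0.031 and 0.028 with limma. For Anti against Ctrl, HOXA10-AS ran from -0.0068 to 0.15, HOXA7 from -0.044 to 0.048 and HOXC6 from -0.081 to 0.17, and with library totals HOXA9 was 0.0012 and HOXB5 0.0038. Depth limited the 14 members with under 10 counts on average.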

Other observations

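Genes that flank the HOX clusters changed in both directions. Of 21 such genes, 3 rose and 6 fell against Ctrl and 5 rose and 3 fell against Anti (9 and 4, and 8 and 3, with library totals). These are 42.9% and 38.1% of the list, beside 31.8% and 35.6% of all genes tested. A mean of at least 100 counts was reached by 15 of the 21, of which 9 passed against Ctrl and 6 against Anti. Both are lower shares than the 67.9% and 74.2% of all genes that abundant. CBX5, the heterochromatin protein HP1 alpha, and HNRNPA1, a splicing factor, lie beside each other near the HOXC cluster and both fell. CBX5 had 2.33 ± 0.130 FPKM in CRLM1-OE, with 3.56 ± 0.207 in Ctrl and 5.58 ± 0.145 in Anti (mean ± SD, n = 3), and fell by 0.73 (SE 0.0445, adjusted p = 2.34e-58) and by 1.31 (SE 0.0393, adjusted p = 2.63e-239) by edgeR's quasi-likelihood test with Benjamini-Hochberg adjustment. HNRNPA1 fell by 0.51 (SE 0.0193, adjusted p = 6.66e-149) against Ctrl and by 0.61 (SE 0.0165, adjusted p = 3.14e-290) against Anti. EVX1, the homeobox gene beyond the 5′ end of HOXA, had 3, 2 and 13 counts in CRLM1-OE, 0, 4 and 3 in Ctrl and 0, 1 and 0 in Anti, with the highest count in CRLM1-OE replicate 3.

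Other transcripts of the clusters, among them the joint HOXA10-HOXA9 entry, were listed outside the member rule. Of 20 listed, 12 were tested, and 0 rose and 0 fell against Ctrl by edgeR, with 2 at an unadjusted p of at most 0.05 (beside 36.7% of all genes) and 0 by DESeq2. Against Anti HOXC-AS1 rose by 0.61 ± 0.198 (adjusted p = 0.00712) and HOXD-AS2 changed by -0.79 ± 0.224 (adjusted p = 0.00149). The first call was lost without Anti replicate 1 (0.32, adjusted p = 0.273), with DESeq2 (adjusted p = 0.0822) and with limma on FPKM, and the second with limma on FPKM alone (adjusted p = 0.0524 and 0.0506). HOXD-AS2 had 43, 32 and 24 counts in CRLM1-OE, 29, 32 and 40 in Ctrl and 62, 44 and 58 in Anti, so every Anti count lay above the others, by 1 count at the nearest, while HOXD8, with which it shares exonic bases on the opposite strand, was highest in CRLM1-OE.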
